A study of Mus musculus with 2 samples.

Results

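Replication-dependent histone genes encode the proteins around which DNA is wound in chromatin. They were taken as every gene whose array annotation gave a single symbol beginning with Hist and a digit, in the array's main probe category. This gave 50 genes of 19049 with a single symbol, read from 54 transcript clusters (the array's unit of about 1 gene). They comprised 5 genes of the linker histone H1, 13 of H2A, 15 of H2B, 9 of H3 and 8 of H4, and 1 of the H2B genes, Hist3h2bb-ps, is a pseudogene. Hist1h1t, Hist1h2ba and Hist1h2aa are known as testis genes and fall under the symbol rule all the same. The tissue was lung of male C57BL/6 mice, an inbred strain. The irradiated group had received γ-rays to the thorax at 7 weeks of age and was sampled after 25 weeks, with α-smooth muscle actin overexpression seen by western blot, and the nonirradiated group served as negative control. Each group was represented by 1 array, so no value has a replicate error, no test was possible, and all differences describe these 2 arrays, whose number limits the precision. The dose rate was 0.81 Gy/min. The total dose and the number of mice behind each array are not given in the sources used here.

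Most histone mRNA is made while DNA is copied, when new chromatin has to be packaged, and it is removed when replication ends. These mRNAs lack a poly(A) tail and end instead in a stem-loop that is bound by SLBP, the stem-loop binding protein. H2A and H2B form dimers and H3 and H4 tetramers, which together make the nucleosome core, and H1 sits on the DNA between nucleosomes. In an adult lung few cells divide, and some histone genes are also transcribed outside replication. The copies of each class are short, closely related genes that lie in clusters, so array probes for one copy can bind the RNA of another. The array annotation marks such transcript clusters as cross-hybridising, and this held for 24.1% of the 54 histone clusters against 9.15% of all 20046 single-symbol clusters. The histone clusters also had fewer probes, with a median of 15 against 22.

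Histone promoters hold short shared motifs. The 4 sequences here are the 250 bases before the annotated start of the genes with the highest and the lowest difference between the arrays (Hist1h2ag and Hist1h2ab) and of the H1 and the H4 gene with the highest RMA value (Hist1h1c and Hist1h4k). Capitals mark 4 motifs searched on both strands: the octamer ATTTGCAT known from H2B genes, CCAAT (the box bound by NF-Y), TATAAA (the TATA box) and AAACACA (the H1 box). The sequences are from RefSeq (GRCm38.p6), 5′ to 3′.
Hist1h2ag (H2ac11), chr13:22042950-22043199, minus strand: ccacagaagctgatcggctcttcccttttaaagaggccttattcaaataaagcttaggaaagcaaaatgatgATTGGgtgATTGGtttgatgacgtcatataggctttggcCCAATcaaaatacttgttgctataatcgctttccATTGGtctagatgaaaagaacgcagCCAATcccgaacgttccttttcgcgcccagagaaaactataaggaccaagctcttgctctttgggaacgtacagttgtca
Hist1h2ab (H2ac4), chr13:23750838-23751087, plus strand: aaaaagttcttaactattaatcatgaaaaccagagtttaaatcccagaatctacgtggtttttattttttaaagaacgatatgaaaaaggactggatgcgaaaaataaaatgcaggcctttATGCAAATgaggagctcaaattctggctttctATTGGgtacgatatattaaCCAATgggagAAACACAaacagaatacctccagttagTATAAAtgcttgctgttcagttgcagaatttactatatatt
Hist1h1c (H1f2), chr13:23738557-23738806, plus strand: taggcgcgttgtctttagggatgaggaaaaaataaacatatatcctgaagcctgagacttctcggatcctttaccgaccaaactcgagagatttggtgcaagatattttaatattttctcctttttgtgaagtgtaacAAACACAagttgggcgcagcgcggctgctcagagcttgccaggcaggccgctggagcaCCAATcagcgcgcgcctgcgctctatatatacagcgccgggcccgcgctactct
Hist1h4k (H4c12), chr13:21750554-21750803, minus strand: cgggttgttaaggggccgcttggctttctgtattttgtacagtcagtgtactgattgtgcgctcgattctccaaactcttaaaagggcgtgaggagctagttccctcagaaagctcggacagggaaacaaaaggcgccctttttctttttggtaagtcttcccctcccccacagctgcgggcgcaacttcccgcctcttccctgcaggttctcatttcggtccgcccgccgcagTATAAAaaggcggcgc

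No marked motif overlapped another in these windows. The window of Hist1h2ag spans the whole gap to Hist1h2bj, an H2B gene read in the opposite direction, whose annotated start lies 248 bases away, and it holds CCAAT on either strand at 5 places and none of the other 3 motifs. The window of Hist1h2ab holds all 4 motifs, with the octamer on the other strand 129 bases before the start. A promoter was matched for 44 of the 50 histone genes. CCAAT was present in 5 of 5 H1, 13 of 13 H2A, 12 of 12 H2B and 6 of 7 H3 windows but in 0 of 7 H4 windows, against 33.8% of all 32851 RefSeq promoter windows of the same length. The octamer occurred in 7 of the 13 H2A and 6 of the 12 H2B windows and in no H1, H3 or H4 window, against 1.60% of all windows. The H1 box was present in 4 of 5 H1 windows, 2 of 13 H2A windows and 2 of 12 H2B windows, against 6.25% of all windows. TATAAA occurred in 23 of the 44 windows, against 12.4% of all. Windows of H2A and H2B genes with nearby starts in opposite directions can overlap, as for Hist1h2ah and Hist1h2bk. The same motif can then be counted in both classes. These motif matches are a description of the letters and not of binding.

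Few histone genes differed by much between irradiated and nonirradiated lung. Of the 50 genes, 27 read higher in irradiated lung and 23 lower, and the median difference was 0.05 on the log2 scale (irradiated minus nonirradiated, as throughout). Over all 19049 genes 45.1% were higher and the median was -0.02. A difference of at least 1.5-fold was reached by 1 histone gene in the higher direction, Hist1h2ag, against a background of 2.07% of all genes, and by 1 in the lower direction, Hist1h2ab, against 1.2%. At a looser limit of 1.2-fold, 10 histone genes were higher (11.8% of all genes were) and 7 lower (13.9% of all genes). The 1.5-fold counts, 1 gene each, are near the background. At 2-fold only Hist1h2ag was higher, against 0.325% of all genes, and no histone gene was lower, against 0.0787%. Both Hist1h2ag and Hist1h2ab read below the median of the array's 23 antigenomic background clusters, whose probes match no mouse sequence, on both arrays. That median was 4.59 in irradiated and 4.77 in nonirradiated lung, and single background clusters ran from 1.97 to 8.51 in irradiated and from 1.88 to 8.98 in nonirradiated lung. Of the 50 histone genes 16 (32.0%) were above that median on neither array, against 10.1% of all genes. Among the other 34 none was 1.5-fold higher or lower, against 1.92% and 0.964% of the 17125 genes above the median on at least 1 array. In bulk tissue, fewer cells of a type and less RNA per cell cannot be told apart.

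**Figure D1:**
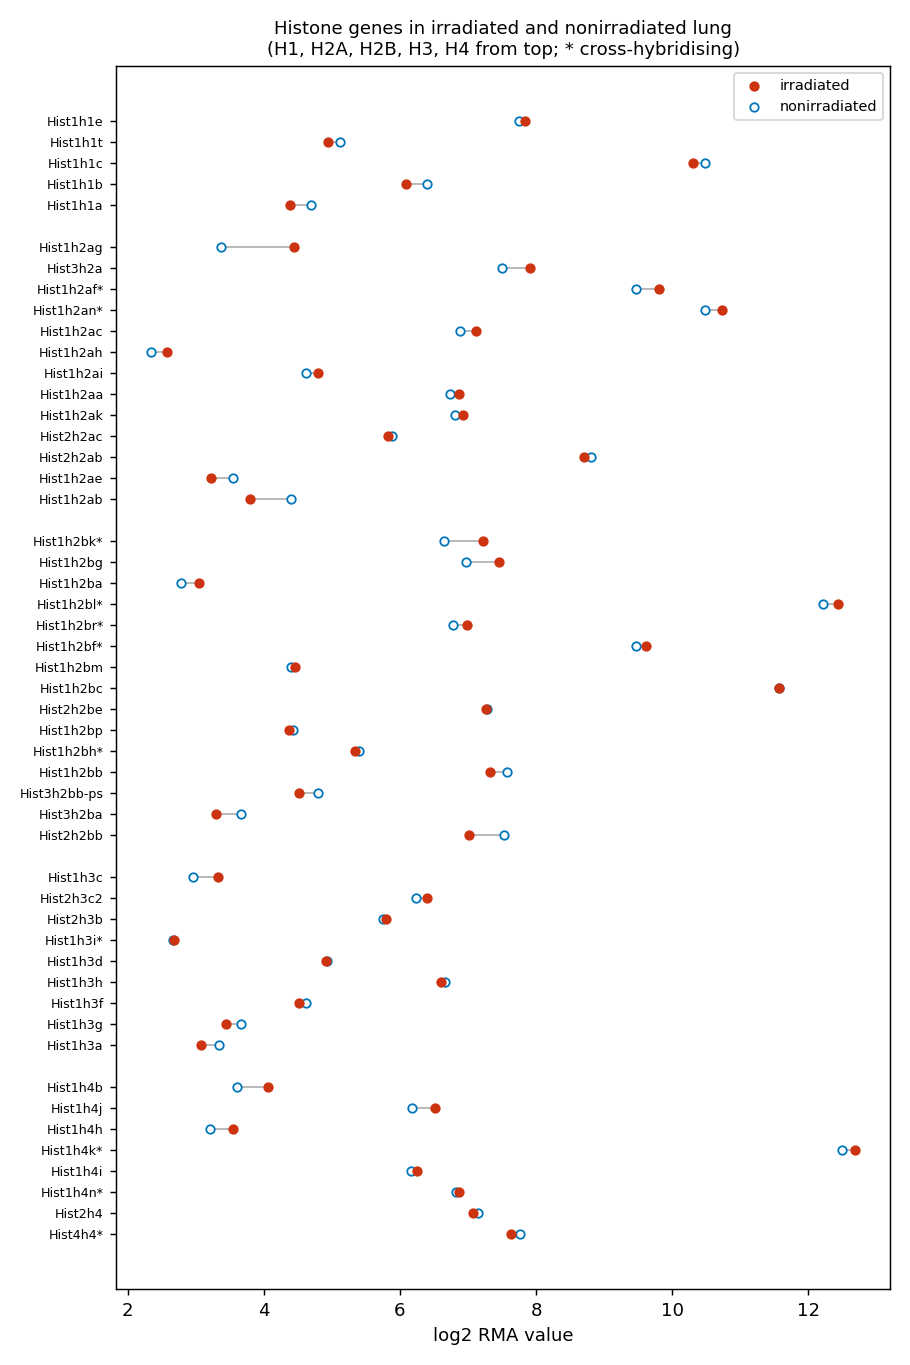
Log2 RMA value (horizontal axis) of each of the 50 histone genes in irradiated lung (filled red) and nonirradiated lung (open blue), 1 array each, by class and in descending order of the difference within a class. An asterisk marks genes read by cross-hybridising transcript clusters. Most pairs of points nearly touch, and the widest gap is that of Hist1h2ag, at 4.45 and 3.37.

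The H1 genes, which encode the linker histones, were mostly lower in irradiated lung. Of 5 genes 4 were lower and the median difference was -0.18, and all 5 were read by clusters annotated as unique. Hist1h1c (RefSeq H1f2) read 10.30 in irradiated lung and 10.48 in nonirradiated lung, a difference of -0.18. Hist1h1b (H1f5) read 6.09 in irradiated and 6.39 in nonirradiated lung (-0.30), and Hist1h1a (H1f1) read 4.39 in irradiated and 4.70 in nonirradiated lung (-0.31). Those 2 lay below the array medians of 7.27 in irradiated and 7.29 in nonirradiated lung, and Hist1h1a also below the antigenomic median on both arrays. Hist1h1t, the testis-specific linker histone, read 4.95 in irradiated and 5.12 in nonirradiated lung. The exception was Hist1h1e, at 7.83 in irradiated and 7.75 in nonirradiated lung, whose transcript cluster also spans the H2B gene Hist1h2be. No H1 gene reached 1.5-fold in either direction.

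Of the 13 H2A genes 9 were higher in irradiated lung, with a median of 0.18. Hist1h2ag (RefSeq H2ac11, chromosome 13, 22042477 to 22042949, minus strand, GRCm38) read 4.45 in irradiated and 3.37 in nonirradiated lung (1.08). Both values are below the antigenomic median, so the size of this difference is uncertain and no fold is given. Among all genes with a mean value under 4, 8.04% differed by at least 1.5-fold in either direction, against 1.61% of those at 10 or more. Hist3h2a, the H2A gene of the chromosome 11 cluster, read 7.91 in irradiated and 7.51 in nonirradiated lung (0.41), above the median of the array in both. Hist1h2af read 9.80 in irradiated and 9.46 in nonirradiated lung (0.34), and Hist1h2an read 10.73 in irradiated and 10.48 in nonirradiated lung (0.25), both from cross-hybridising clusters. Hist1h2ah, with the lowest values of the class, read 2.58 in irradiated and 2.35 in nonirradiated lung.

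In the other direction, Hist1h2ab (H2ac4, chromosome 13, 23751088 to 23751593, plus strand) read 3.79 in irradiated and 4.40 in nonirradiated lung (-0.61), also below the antigenomic median on both arrays. The same held for Hist1h2ae, at 3.22 in irradiated and 3.55 in nonirradiated lung (-0.33), and for Hist1h2ah. The 2 H2A genes of the chromosome 3 cluster differed less: Hist2h2ab read 8.70 in irradiated and 8.81 in nonirradiated lung, and Hist2h2ac read 5.83 in irradiated and 5.88 in nonirradiated lung. Hist1h2ac, Hist1h2ai and Hist1h2ak, were higher by 0.24, 0.18 and 0.11. Among the 11 H2A genes read by unique clusters alone, 7 were higher and the median was 0.13.

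The H2B genes were split, with 7 higher and 8 lower in irradiated lung and a median of -0.00, which was 0.02 after either centring on the median of all genes or removal of the intensity trend. Hist1h2bk read 7.22 in irradiated and 6.65 in nonirradiated lung, 1.49-fold higher and just under the 1.5-fold limit, from a cross-hybridising cluster. Hist1h2bg, read by a unique cluster, was at 7.45 in irradiated and 6.97 in nonirradiated lung (0.49). Hist1h2ba, the testis H2B gene that RefSeq also lists as Th2b, read 3.05 in irradiated and 2.79 in nonirradiated lung. Its testis partner Hist1h2aa (Th2a) read 6.86 in irradiated and 6.74 in nonirradiated lung.

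Of the lower H2B genes, Hist2h2bb of chromosome 3 read 7.02 in irradiated and 7.53 in nonirradiated lung, a 1.42-fold lower value. Hist3h2ba read 3.30 in irradiated and 3.66 in nonirradiated lung (-0.36), and the pseudogene Hist3h2bb-ps read 4.52 in irradiated and 4.80 in nonirradiated lung (-0.28). Hist1h2bb followed, at 7.33 in irradiated and 7.57 in nonirradiated lung (-0.24). Hist1h2bc had nearly the same value in both arrays, 11.56 in irradiated and 11.57 in nonirradiated lung, from a unique cluster with high signal. Hist1h2bl read 12.43 in irradiated and 12.22 in nonirradiated lung, from a cross-hybridising cluster of 8 probes. Hist2h2be, the H2B gene beside Hist2h2ac, read 7.26 in irradiated and 7.29 in nonirradiated lung. The other 5 H2B genes, Hist1h2br, Hist1h2bf, Hist1h2bm, Hist1h2bp and Hist1h2bh, ranged from -0.06 to 0.21. In this class Hist3h2ba, Hist1h2ba, Hist1h2bm and Hist1h2bp were above the antigenomic median on neither array. The pseudogene Hist3h2bb-ps was above it in nonirradiated lung alone.

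The H3 genes ranged from -0.25 to 0.36, with 4 of 9 genes higher in irradiated lung and a median of -0.01, which was 0.01 after centring on the median of all genes. None of these 9 genes reached the median of either array. The H3 gene Hist2h3c1, whose clusters carry no symbol and are not counted here, read above both medians. Of these 9 genes 5 were above the antigenomic median on neither array, Hist1h3c, Hist1h3a, Hist1h3g, Hist1h3f and Hist1h3i. For Hist1h3f this holds for an average: its own cluster read 2.71 in both arrays. The other, on Hist1h3e, read 6.31 in irradiated and 6.53 in nonirradiated lung, above that median. Hist1h3c read 3.33 in irradiated and 2.96 in nonirradiated lung (0.36). Hist1h3a read 3.08 in irradiated and 3.34 in nonirradiated lung (-0.25), and Hist1h3g read 3.44 in irradiated and 3.66 in nonirradiated lung (-0.22). The H3 genes of the chromosome 3 cluster, Hist2h3c2 and Hist2h3b, differed by 0.16 and 0.05, and Hist1h3d and Hist1h3f by -0.01 and -0.11. The value of Hist1h3d, which is also the class median, averages clusters of opposite direction. The one on Hist1h3d itself was at -0.23 and the one on the H2A gene Hist1h2ad at 0.21. That of Hist1h3f averages its own cluster at 0.00 and one on Hist1h3e at -0.22. At the ends of the signal range, Hist1h3h read 6.60 in irradiated and 6.66 in nonirradiated lung and Hist1h3i read 2.69 in irradiated and 2.67 in nonirradiated lung.

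Of the 8 H4 genes 6 were higher in irradiated lung, with a median of 0.14 and none at 1.5-fold. Hist1h4b read 4.06 in irradiated and 3.61 in nonirradiated lung (0.45), and Hist1h4h read 3.54 in irradiated and 3.21 in nonirradiated lung (0.34). Both were below the antigenomic median on both arrays. Hist1h4j, with a higher signal, read 6.52 in irradiated and 6.18 in nonirradiated lung (0.34). Hist1h4k had the highest values of any histone gene, 12.69 in irradiated and 12.49 in nonirradiated lung (0.20), from a cross-hybridising cluster, so that this signal may come from several H4 genes. Hist1h4i and Hist1h4n differed by 0.08 and 0.05, but the cluster named Hist1h4n lies on Hist1h4m. The cluster on the Hist1h4n gene itself carries 13 H4 symbols, is not counted here, and was at 0.72. The 2 lower genes were Hist2h4 (7.08 in irradiated and 7.15 in nonirradiated lung) and Hist4h4 (7.63 in irradiated and 7.76 in nonirradiated lung), the H4 genes outside chromosome 13. Among the 5 H4 genes read by unique clusters, 4 were higher and the median was 0.34, which is the value of Hist1h4h. Over the 6 H4 genes above the antigenomic median on at least 1 array the median was 0.07.

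**Figure D2:**
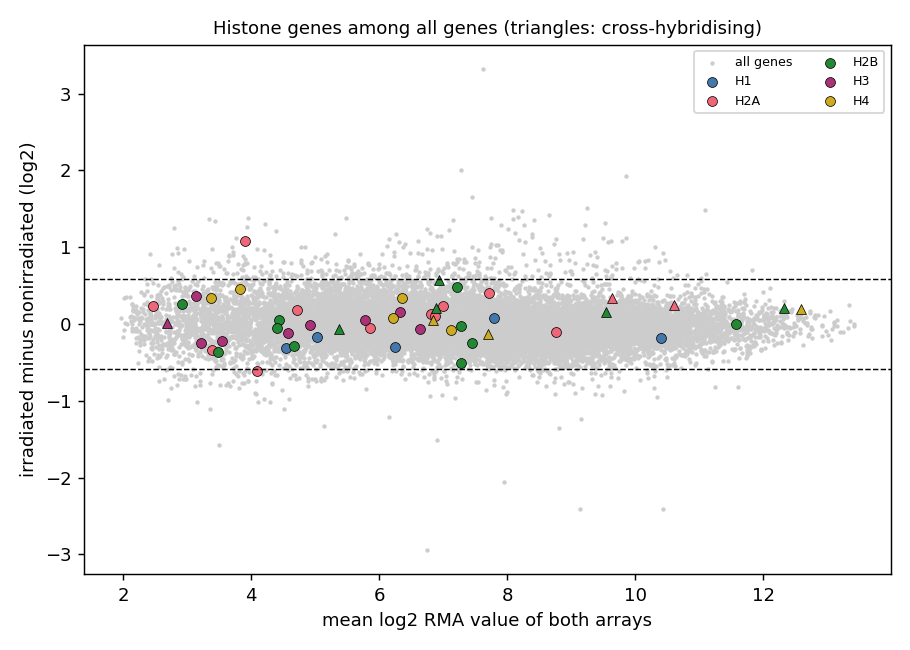
Difference between irradiated and nonirradiated lung (log2, vertical axis) against the mean log2 RMA value of both arrays (horizontal axis) for all 19049 genes (grey) and the 50 histone genes, coloured by class, with triangles for cross-hybridising clusters. Dashed lines mark 1.5-fold. Of the histone genes only Hist1h2ag, at 1.08, and Hist1h2ab, at -0.61, lie outside them.

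The histone genes read by cross-hybridising clusters stood mostly on the higher side. Of these 11 genes 9 were higher in irradiated lung, with a median of 0.20, whereas of the 39 read by unique clusters 18 were higher and 21 lower, with a median of -0.01. Over all genes the same annotation went with a smaller difference in the same direction, with 55.6% of 1158 cross-hybridising genes higher (median 0.04), against 44.4% of 17680 unique ones (median -0.03). Of the 50 histone genes, 14 reached the median of at least 1 array, and 8 of these were higher. Their median was 0.12, against -0.05 for the 9810 genes of the whole table that passed the same limit, of which 39.7% were higher. A gene that passes through 1 array alone differs toward that array, except within the narrow gap between the medians of the arrays. None of the 14 reached 1.5-fold, against 1.78% of those 9810 genes in the higher and 1.01% in the lower direction. The other 36 histone genes had a median of 0.03, with 19 higher (50.8% of all genes below the limit were). They include Hist1h2ag and Hist1h2ab, where 2.38% and 1.4% of the genes below the limit were at least 1.5-fold higher and lower.

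The spread of the histone differences was compared with that of all genes by signal level. The median absolute difference of histone genes was 0.20, against 0.15 for all genes. For the 11 histone genes with a mean value under 4 it was 0.33, against 0.20 for all genes at that level. For the 12 between 4 and 6 it was 0.09, against 0.18, and for the 19 between 6 and 8 it was 0.16, against 0.15. For the 3 between 8 and 10 it was 0.15, against 0.14, and for the 5 at 10 or more it was 0.20, against 0.12, so that the histone values showed no steady trend with signal. The 5 genes at 10 or more (Hist1h4k, Hist1h2bl, Hist1h2bc, Hist1h2an and Hist1h1c) had a signed median difference of 0.20, against -0.03 for all genes at that level, of which the 3 positive values came from cross-hybridising clusters and the 2 unique ones were at -0.00 and -0.18. The SD of the difference was 0.14 over 18 bacterial hybridisation control clusters, 0.21 over 23 antigenomic, 0.24 over 92 ERCC spike-in, 0.31 over 39 poly-A spike-in and 0.41 over 1352 exon control clusters, and differences of several clusters of the same gene had a pooled SD of 0.25 over 636 genes.

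Position on the chromosome was the next property compared. The Hist1 genes of chromosome 13 lie in 2 blocks, with a gap of 1488567 bases between the starts of the nearest genes on either side. In the block from Hist1h2bl to Hist1h2ag, 14 of 17 genes were higher in irradiated lung, with a median of 0.18. In the block from Hist1h4h to Hist1h2aa, 9 of 21 were higher, with a median of -0.01. Over all genes 45.1% were higher. Hist1h2bf, with clusters in both blocks, was left out. Cross-hybridising clusters were unevenly placed: they read 7 of the 17 genes of the first block, all 7 higher with a median of 0.21, and 2 of the 21 genes of the second. Among genes read by unique clusters, 7 of 10 were higher in the first block (median 0.10) and 8 of 19 in the second (median -0.01). The classes were also unevenly placed. Among the H1 genes only Hist1h1b and among the H3 genes only Hist1h3h and Hist1h3i lie in the first block. The other Hist1 genes of these classes lie in the second. The difference between the blocks was not tested, nor was the part of class and cross-hybridisation in it. The 7 genes of the Hist2 cluster on chromosome 3 had a median of -0.05, with 2 higher, and of the 3 genes of the Hist3 cluster on chromosome 11 only Hist3h2a was higher.

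**Figure D3:**
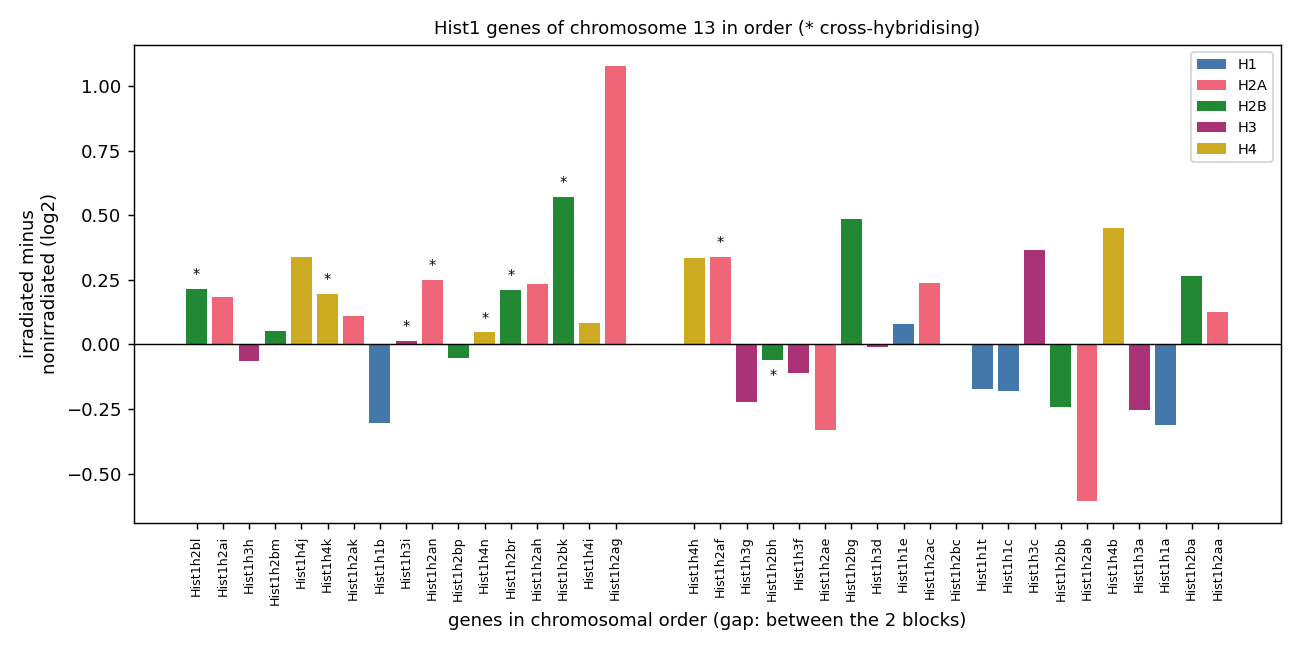
Difference between irradiated and nonirradiated lung (log2, vertical axis) of 38 Hist1 genes in their order along chromosome 13, coloured by histone class, with a blank space between the 2 blocks and asterisks for cross-hybridising clusters. In the left block 14 of 17 bars point up, and in the right block 9 of 21.

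H2A and H2B genes often lie head to head and share the DNA between their starts. With each transcript cluster assigned to the RefSeq gene at its coordinates, 13 such H2A and H2B pairs were measured, with 163 to 280 bases between partners. In 9 of them both partners differed in the same direction, 8 with both higher and 1 with both lower, and in 4 the directions were opposite. Apart from Hist1h2ag with Hist1h2bj and Hist1h2ba with Hist1h2aa, each of the 8 pairs with both higher held a cross-hybridising cluster. Of the opposite pairs, only Hist1h2an with Hist1h2bp did. The part of cross-hybridisation in the shared directions was not tested. The pairs Hist1h2bq with Hist1h2ao and Hist1h2ap with Hist1h2br had the same values, because their clusters carry identical measurements. In the pair whose shared promoter is printed above, Hist1h2ag was at 1.08 and Hist1h2bj at 0.33 (5.03 in irradiated and 4.70 in nonirradiated lung). The cluster on Hist1h2bj is annotated as unique but carries 4 H2B symbols, and in nonirradiated lung it read below the antigenomic median of 4.77. Hist1h2ag read below that median on both arrays. The widest opposition was between Hist1h2ae (-0.33) and Hist1h2bg (0.49), followed by Hist3h2bb-ps (-0.28) and Hist3h2a (0.41). Among the H2A and H2B genes with a matched promoter, the 13 with an octamer had a median difference of 0.13 (8 higher) and the 12 without it 0.17 (8 higher). The 14 with TATAAA had a median of 0.04 (7 higher) and the 11 without it 0.21 (9 higher), and neither difference was tested. Overlapping windows of head-to-head partners can hold the same motif, so these genes are not independent.

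**Figure D4:**
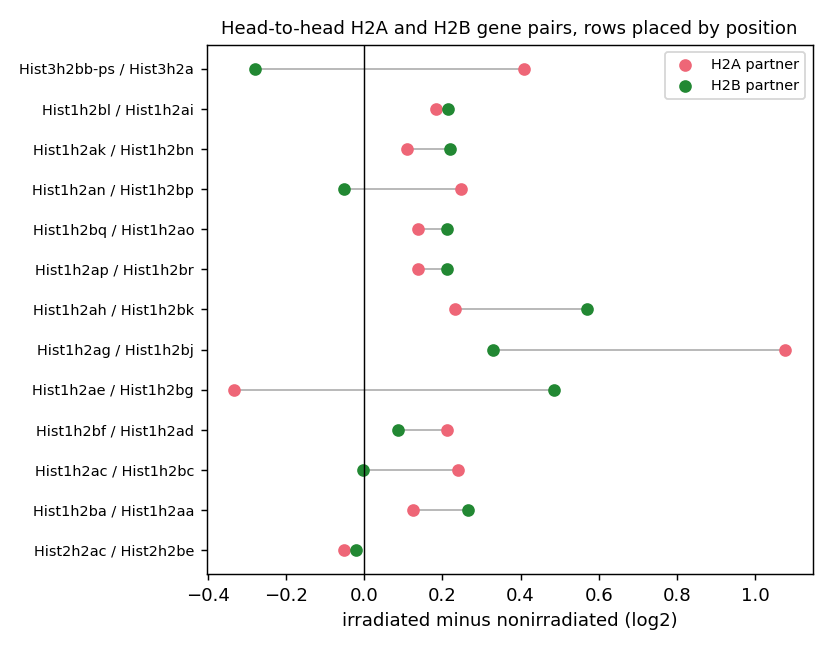
Difference between irradiated and nonirradiated lung (log2, horizontal axis) of the H2A partner (red) and the H2B partner (green) of 13 head-to-head gene pairs (rows), each cluster assigned by position. In 9 pairs both points lie on the same side of 0, and most of these 9 hold a cross-hybridising cluster. The pair of Hist1h2ag and Hist1h2bj reaches 1.08 and 0.33, at low signal.

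The symbols of histone clusters were in part ambiguous. Together 66 transcript clusters of the main category named a histone gene in their symbol or description: 54 with 1 symbol, 10 with several and 2 with none. Of the 54, 49 overlapped the RefSeq gene of their own symbol. The other 5 lay on another histone gene: a cluster named Hist1h3d lay on the H2A gene Hist1h2ad (4.56 in irradiated and 4.35 in nonirradiated lung), one named Hist1h3f on Hist1h3e (6.31 in irradiated and 6.53 in nonirradiated lung), one named Hist1h2bf on Hist1h2bn (11.61 in irradiated and 11.39 in nonirradiated lung), one named Hist1h2br on Hist1h2bq and one named Hist1h4n on Hist1h4m. The averaged values of Hist1h3d, Hist1h3f, Hist1h2bf and Hist1h2br therefore each join the clusters of 2 loci. There were 3 pairs of clusters with identical values in both arrays: Hist1h2br, Hist1h2ap with Hist1h2ao, and Hist2h2aa1 with Hist2h2aa2.

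The 10 histone clusters with several symbols ranged from -0.83 to 0.79, and 5 of them were higher in irradiated lung. Those on Hist1h2bj, Hist1h3b and Hist1h4c are annotated as unique all the same, so that annotation does not mean a single symbol. The lowest difference of any histone cluster was at the H3 gene Hist1h3b (chromosome 13, 23752267 to 23752886), annotated with 8 H3 symbols, which read 4.63 in irradiated and 5.46 in nonirradiated lung (-0.83). A set of 4 clusters carried the same 13 H4 symbols and did not share a direction. The one on Hist1h4d read 7.47 in irradiated and 6.69 in nonirradiated lung (0.79), and that on Hist1h4n 7.10 in irradiated and 6.38 in nonirradiated lung (0.72). The one on Hist1h4c read 6.95 in irradiated and 7.01 in nonirradiated lung (-0.06), and that on Hist1h4f 3.98 in irradiated and 4.50 in nonirradiated lung (-0.52). So 2 of the 10 clusters with several symbols were at least 1.5-fold higher, against 17.9% of all 84 such clusters of the array, and 1 was at least 1.5-fold lower, against 7.14%. Among the 54 single-symbol histone clusters 1 was higher and 1 lower by that much, against 2.19% and 1.29% of all 20046. The H3 gene Hist2h3c1 was covered by 2 clusters without a symbol, both above the array medians. The one annotated as unique, which also spans the H2A gene Hist2h2aa1, read 10.35 in irradiated and 10.52 in nonirradiated lung (-0.17). The cross-hybridising one read 9.80 in irradiated and 9.63 in nonirradiated lung (0.17). With all 66 clusters assigned by position, 65 loci gave 35 higher values and a median of 0.05.

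The genes that act with the replication-dependent histones also differed little. Of 13 replication-independent variant genes, which are expressed throughout the cell cycle or in special cells, 7 were higher and 6 lower, with a median of 0.00 and none at 1.5-fold. H2afz, which encodes the variant H2A.Z, was the highest at 8.22 in irradiated and 7.80 in nonirradiated lung (0.42). The testis linker-like gene Hils1 differed by 0.23, and the macroH2A genes H2afy and H2afy2 both by 0.16. Of 18 genes for histone transcription and 3′ end processing 6 were higher and 12 lower (median -0.02). Slbp read 9.00 in both arrays, and Npat, the cyclin E and CDK2 substrate that activates histone transcription, read 9.30 in irradiated and 9.31 in nonirradiated lung. In this list Ncbp1, a cap-binding subunit, differed by 0.28, the U7 snRNP protein Lsm10 by -0.27 and the CCAAT-binding subunits Nfya and Nfyb by 0.23 and 0.18.

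Among 25 histone chaperone and assembly genes, which escort histones to DNA, 11 were higher, 13 lower and 1 equal (median -0.01). Npm2 read 7.02 in irradiated and 6.67 in nonirradiated lung (0.35). Chaf1b, a subunit of the replication-coupled assembly factor CAF-1, differed by -0.32, and the HIRA partners Ubn2 and Cabin1 by 0.24 and -0.23. Of 39 DNA replication and S phase genes 14 were higher and 25 lower, with a median of -0.06. Tyms, thymidylate synthase, was the only gene of these lists past 1.5-fold, at 8.99 in irradiated and 8.33 in nonirradiated lung (0.66). The clamp loader subunits did not share a direction, with Rfc4 at 0.55 and Rfc2 at -0.49, and Gins1, of the replicative helicase, differed by -0.35. Pcna, the sliding clamp, read 10.65 in both arrays. Genes of mitosis were higher in 15 of 18 cases with a median of 0.15, none at 1.5-fold. Nusap1, a spindle protein, read 7.91 in irradiated and 7.49 in nonirradiated lung (0.42), the cyclin Ccna2 differed by 0.39, the kinesin Kif11 by 0.34, Hmmr by 0.34 and the proliferation marker Mki67 by 0.28.

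**Figure D5:**
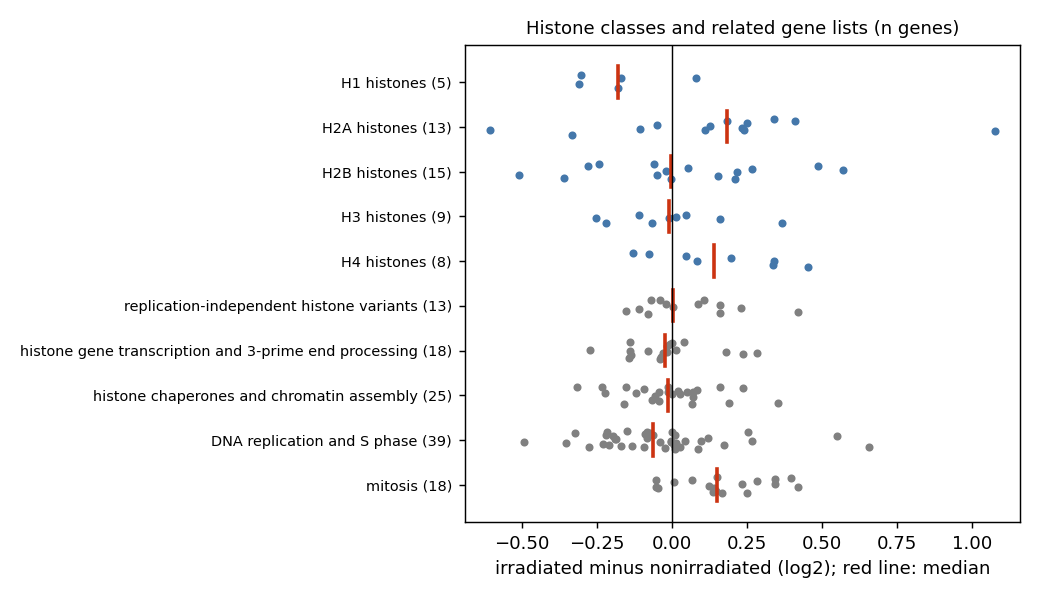
Difference between irradiated and nonirradiated lung (log2, horizontal axis) of each gene in the 5 histone classes (blue) and in 5 lists of related genes (grey), with the median of each row as a red line and the number of genes in brackets. The median of mitosis genes lies at 0.15, and those of the H1 and H2A histones at -0.18 and 0.18.

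Markers of other cells and RNA measures that moved between the arrays are given beside these values. Lung identity was plain in both, with the surfactant genes Sftpc (13.39 in irradiated and 13.42 in nonirradiated lung) and Sftpb (13.19 in irradiated and 13.30 in nonirradiated lung) near the top of the array's range. Of 7 lung markers 2 were higher, with summed linear values of 51584 in irradiated and 54055 in nonirradiated lung. Adipocyte and heart muscle markers were at least 1.5-fold higher in 8 of 8 cases each. Their summed linear values were 6740 in irradiated and 2635 in nonirradiated lung for adipocytes (Adipoq 7.31 irradiated and 6.35 nonirradiated, Lep 8.54 irradiated and 7.25 nonirradiated). For heart muscle they were 10672 in irradiated and 5668 in nonirradiated lung (Myh6 9.40 irradiated and 8.47 nonirradiated, Nppa 10.82 irradiated and 8.89 nonirradiated). Immature granulocyte markers were higher in 7 of 8 cases (summed 1185 in irradiated and 785 in nonirradiated lung, Ngp 8.28 irradiated and 6.28 nonirradiated, Camp 6.16 irradiated and 5.59 nonirradiated). Erythroid markers were higher in 6 of 7 (1170 in irradiated and 818 in nonirradiated lung, Alas2 8.84 irradiated and 8.49 nonirradiated). B and plasma cell markers were higher in 6 of 7 (10239 in irradiated and 8866 in nonirradiated lung, Ms4a1 9.75 irradiated and 9.53 nonirradiated), and T and NK cell markers in 6 of 8 (3670 in irradiated and 3255 in nonirradiated lung, Cd3d 7.25 irradiated and 7.56 nonirradiated, Cd4 7.85 irradiated and 7.53 nonirradiated). Intron control clusters had a median difference of 0.27 over 5331 clusters, exon control clusters -0.08 over 1352 and antigenomic background clusters -0.21 over 23. The part of these shifts in the histone and mitosis values was not tested.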

How the data were processed

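Expression was measured in 1 irradiated and 1 nonirradiated mouse lung sample on Affymetrix gene-level whole-transcript arrays, labelled from 300 ng of total RNA, per the labels' protocols. The deposited values are log2 RMA values, for which the submitters' processing notes name Affymetrix Expression Console 1.3.1. RMA normally includes quantile normalisation, which hides any change common to most genes. A workbook and a value table held the same values within rounding, with probe numbers and cross-hybridisation codes. Coordinates are on GRCm38, which the deposited annotation cites.

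Clusters of the main category with 1 symbol were averaged per symbol (20046 clusters, 19049 genes). Differences are irradiated minus nonirradiated. With 1 array per group no p-value was calculated. A gene was bright when its value on at least 1 array reached the median of that array over all genes. Clusters were placed on RefSeq genes (GRCm38.p6) by overlap. Of 197 entries of the related lists, 166 matched a symbol and 31 did not.

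The members and lists were chosen with earlier results of these data known. All members may be named, with both values for the 10 largest differences in each direction and the highest and lowest reading of each class. Related lists give up to 4 genes with the largest absolute difference plus Slbp, Npat, Pcna and Mki67, marker lists their first 2 matched genes, of which 2 genes are not reported here. Other members were named after their values were seen. Counting and trend removal (statsmodels 0.14.6, lowess span 0.3) were tested on simulated data. Alternatives were median centring, trend removal, the cluster with the most probes, unique clusters, at least 10 probes, bright genes, genes above the antigenomic background median, the value table and other fold limits.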

Additional observations from a re-analysis of the deposited data

How the results depend on the processing

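No paired analysis was possible because each group has 1 array. The count of histone genes at least 1.5-fold higher was 1, and it was 2 after median centring (Hist1h2bk joined at 0.59), 0 among the 14 bright histone genes, 0 among the 34 above the antigenomic median, 10 at a 1.2-fold limit and 3 with clusters named by position. The count at least 1.5-fold lower was 1, and it was 0 among bright genes, 0 among those 34, 0 at a 2-fold limit, 7 at a 1.2-fold limit and 2 with clusters named by position. Of the 14 bright genes 8 were higher, which is fewer because fewer genes were counted. The H4 median was 0.34 over the 5 genes with unique clusters, against 0.14 over all 8. The other 81 of 93 alternative values kept a count within 1.5 times or moved a median by less than 0.14, the SD of the bacterial hybridisation controls, which is smaller than that of the other spike-ins. The medians of H2B (-0.04 to 0.08) and H3 (-0.04 to 0.02) crossed 0 among the alternatives, and those of H1, H2A and H4 did not. The H4 median fell to 0.07 over the 6 H4 genes above the antigenomic median and to 0.03 over the 2 bright ones. The 9 H3 genes counted here include no bright gene and so give no value there. Over all alternatives the median of all histone genes ran from -0.01 (unique clusters) to 0.12 (bright genes), so its sign depended on the choice of clusters. Naming by position, the antigenomic limit and leaving out the pseudogene and testis genes were chosen after seeing the data. Scanner values were not analysed here, so the antigenomic median is only a rough limit, and by it both genes past 1.5-fold were not above background.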
